A study of Bos taurus with 20 samples.

Results

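The genes described here are 10 genes of antioxidant defence in bovine neck muscle, measured on a 1-colour oligonucleotide array. They are the metallothionein MT3, heme oxygenase HMOX1, the peroxide-removing enzymes GPX1, PRDX2 and CAT, the superoxide dismutases SOD1 and SOD2, the glutaredoxins GLRX and GLRX2, and the thioredoxin TXN. Members were found by their symbol in the array's annotation, as the gene name or in the description, and each of the 10 genes had 1 probe among 21475 probes on the array. The gene number or accession listed there gave the same symbols. All 10 passed the filter on dim probes, which kept 15430 probes carrying 11257 named genes. The members were chosen on their treatment difference at day 0, or as relatives of genes that were, with that result known. That difference is therefore described below without a test.

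Neck muscle came from 10 cows at a slaughterhouse and was kept under vacuum at 4 °C, with 1 sample of each animal at day 0 and 1 at day 14. The 5 control animals are K3, K6, K8, K9 and K10. The 5 treated animals are DE27, DE29, DE30, DE31 and DE32, and they had received 2 agents together: dexamethasone, a synthetic glucocorticoid, at 0.4 mg per day by mouth for 31 days, and estradiol, an oestrogen, at 5 mg per week by intramuscular injection, 6 times. The effects of the 2 agents cannot be told apart, and the labels used here give neither age nor breed. Values below are scaled signals, which are processed array intensities set to a common 75th percentile, and a difference is on the log2 scale with its standard error (SE) from limma. Signals of different probes are not compared as levels.

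Working muscle fibres produce superoxide, which superoxide dismutases turn into hydrogen peroxide. Catalase, glutathione peroxidases and peroxiredoxins then remove the peroxide, the glutathione peroxidases at the expense of glutathione and the peroxiredoxins at the expense of thioredoxin. Glutaredoxins take glutathione off protein thiols, heme oxygenase breaks heme into biliverdin, carbon monoxide and iron, and metallothioneins bind zinc and copper through their many cysteines. Several of these genes are known targets of NRF2, a transcription factor that KEAP1 holds in check, and HMOX1 is also held down by the heme sensor BACH1.

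As a check of the tissue, all 7 of 7 muscle fibre markers tested (among them ACTA1, CKM, MB and TTN) were well above background on every array. Before scaling, the 75th percentile of an array's intensity lay between 654 and 945 at day 0 and between 274 and 533 at day 14. It fell by 1.03 (log2) between day 0 and day 14, in 10 of 10 animals (two-sided exact permutation p = 0.00195). Every storage change below is therefore a change against the rest of the array, and the median of all tested probes itself moved by 0.10. Fewer cells of a type and less RNA per cell cannot be told apart in these whole-tissue samples.

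In fresh muscle at day 0, MT3, HMOX1, GPX1, PRDX2 and GLRX had higher signals in treated than in control animals, and SOD1, SOD2, CAT, GLRX2 and TXN overlapped between the groups. For the first 5 genes the lowest treated sample lay above the highest control sample. No such gap between groups occurred in the other direction. Of all tested probes, 2.87% had every treated sample above every control sample at day 0, and 2.45% passed an adjusted p of 0.05 in either direction. Because this comparison chose the members, nothing is read from these shares.

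MT3 is a metallothionein best known from the brain. Its scaled signals at day 0 were 1290.3, 1165, 1795, 1069.7 and 655 in control animals K3, K6, K8, K9 and K10. In treated animals DE27, DE29, DE30, DE31 and DE32 they were 3652, 2123, 3808, 3021 and 4572. Every treated value exceeded the highest control value, that of K8, and the difference was 1.55 ± 0.28, or 2.93-fold.

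HMOX1, the inducible heme oxygenase, had signals of 1761, 872, 1407, 978 and 1925 in the control animals, in the same order. The treated animals had 2385, 4033, 3092, 2829 and 3655. The groups were separated by the gap between control K10 and treated DE27, and the difference was 1.25 ± 0.25, or 2.38-fold.

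GPX1, the selenium-dependent glutathione peroxidase of the cytosol, had signals of 6315, 7560.5, 7181, 5678 and 8978 in control muscle at day 0. In treated muscle they were 9033, 12747, 14274, 12073 and 11630.5. The highest control (K10) and the lowest treated animal (DE27) lay next to each other, at 8978 and 9033, and the mean difference was 0.74 ± 0.17.

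PRDX2 is a peroxiredoxin that is also very abundant in red blood cells. At day 0 the control animals had 26601, 16524, 16437, 14447 and 14327. The treated animals had 30044, 28409, 26819, 29727 and 33257. Control K3 stood apart from the other 4 controls and came close to the lowest treated animal, DE30, at 26601 against 26819. The difference was 0.78 ± 0.18, or 1.72-fold.

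GLRX, the cytosolic glutaredoxin, gave a signal close to background, with 26.7, 21.5, 25.1, 19.6 and 18.5 in control and 33.2, 45.7, 49.6, 44.5 and 43.9 in treated animals at day 0. The difference was 0.96 ± 0.16, and 0.40 with the normexp background correction, and all 10 day 0 arrays were well above background. Within scan days, the difference of GLRX at day 0 ranged from 0.85 to 1.05 and that of MT3 from 0.79 to 2.48. That of HMOX1 ranged from 0.31 to 1.70, that of PRDX2 from 0.44 to 1.07 and that of GPX1 from 0.01 to 0.98. Scan day 3 held only 1 control (K10) and 1 treated array (DE27) of day 0, and scan day 1 held 2 and 1. The pair K10 and DE27 gave the highest MT3 and PRDX2 values and the lowest HMOX1, GPX1 and GLRX values.

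The other 5 genes had smaller differences between treated and control muscle at day 0. The differences were 0.39 ± 0.29 for SOD2, the manganese superoxide dismutase of mitochondria, 0.25 ± 0.16 for CAT, the peroxisomal catalase, and 0.12 ± 0.20 for GLRX2, the glutaredoxin of mitochondria and nucleus. They were -0.08 ± 0.19 for SOD1, the copper- and zinc-containing superoxide dismutase of the cytosol, and -0.03 ± 0.17 for TXN, the cytosolic thioredoxin. In all 5 genes the range of treated samples overlapped the range of controls.

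**Figure D1:**
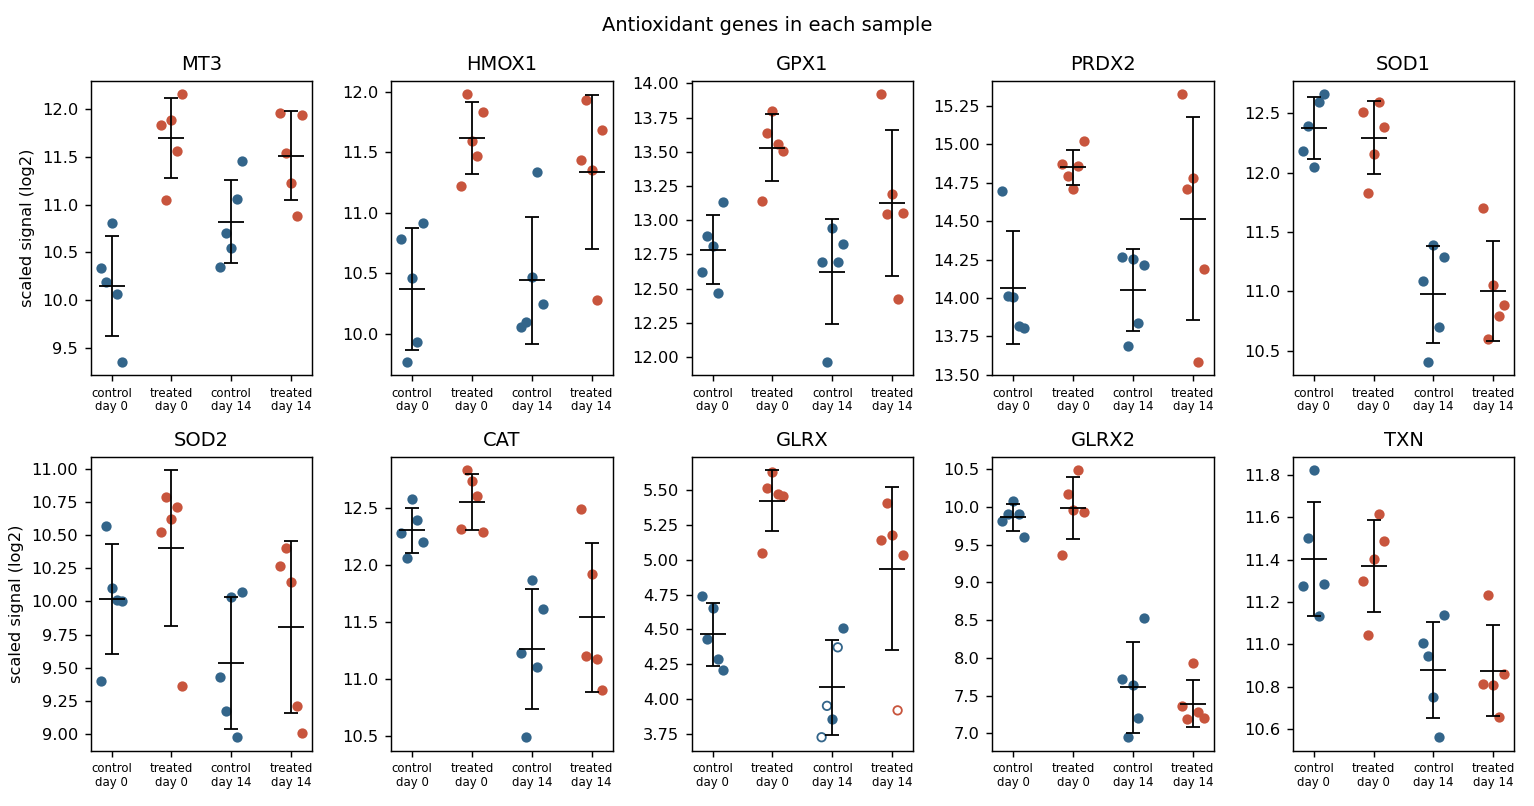
Scaled signal (log2) of each gene in each of the 20 samples, by group; each point is 1 animal, bars show the mean and SD (n = 5), and open points were not well above background. MT3, HMOX1, GPX1, PRDX2 and GLRX separate treated from control animals at day 0, and GLRX2, SOD1 and, in control animals, CAT separate day 14 from day 0.

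Of the other metallothionein probes tested, MT2A had a lower mean in treated than in control animals at day 0, and MT1A lay near background. MT2A, a widely expressed metallothionein, had signals from 342 to 514 in treated and from 234 to 2417 in control animals at day 0, so that the treated range lay inside the control range, and its mean was 2.01-fold lower (SE of the log2 difference 0.50). MT1A ran from 5.04 to 27.8 in control and from 2.67 to 4.45 in treated samples, so every treated value lay below every control value. It was, however, well above background in only 2 of 5 control and 0 of 5 treated samples, so neither a size nor a direction is read from it. At day 14 MT2A ran from 436 to 1689 in control and from 212 to 1693 in treated samples. The MT3 probe is listed under a locus number that the RefSeq gene table now gives as MT3, and whether it also binds other metallothionein transcripts was not tested.

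After 14 days of storage no member differed between treated and control animals at an adjusted p of 0.05 in limma, when 0.0713% of all tested probes passed (11 of 15430). The groups overlapped in all 10 genes, as in most of the array, where 1.17% of probes had all treated samples higher and 1.1% all lower. At an unadjusted p of 0.05, 3 members passed (GLRX, HMOX1 and MT3), beside 10.5% of all tested probes. The median difference of the 10 members was 0.37, against 0.05 over all tested probes, and 8 members had values above 0. These day 14 arrays were not used to choose the members, but they come from the same animals as the day 0 arrays.

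HMOX1 at day 14 had signals of 1060.3, 1094, 1419, 2584 and 1211 in control and 2771, 3913, 2617, 1239 and 3285 in treated animals. The groups overlapped through DE31, the lowest treated sample, which lay below controls K8 and K9. Every other treated sample lay above K9, the highest control. The difference was 0.90 ± 0.34 (adjusted p = 0.404), or 1.86-fold.

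GLRX gave 13.2, 15.5, 14.5, 20.7 and 22.8 in control and 35.3, 42.5, 36.2, 15.1 and 32.7 in treated muscle at day 14. Controls K3, K6 and K9 and treated DE31 were not well above background, so these 4 values are not reliable levels. Treated DE31 was again the lowest treated sample. The fitted difference, 0.85 ± 0.29 (adjusted p = 0.360), rests in part on these values, and it was 0.25 with the normexp correction and 0.44 in the authors' series table.

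MT3 gave 1304, 1665, 1499, 2137 and 2807 in control animals at day 14. In treated animals it gave 4007, 2994, 2401, 1882 and 3929. The treated values were spread much as at day 0, while 4 of the 5 controls were higher than on day 0, and the difference was 0.69 ± 0.28 (adjusted p = 0.427), or 0.44 with scan day as a block.

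For GPX1 the day 14 signals were 6620.4, 4003, 7879, 6622 and 7263 in control and 15492, 8453, 9357, 5483 and 8488 in treated animals. Treated DE27 was far above and control K6 well below the others, and the difference was 0.50 ± 0.28 (adjusted p = 0.571), or 0.30 without DE27. PRDX2 gave 19736, 13217, 19498, 14615 and 19022 against 41074, 26757, 28114, 12299 and 18649, with DE27 highest and DE31 lowest of all 10 samples. Its difference was 0.47 ± 0.30 (adjusted p = 0.619), with 0.26 when DE27 and 0.70 when DE31 was left out. The remaining 5 genes ranged from -0.21 ± 0.29 for GLRX2 to 0.28 ± 0.34 for CAT.

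**Figure D2:**
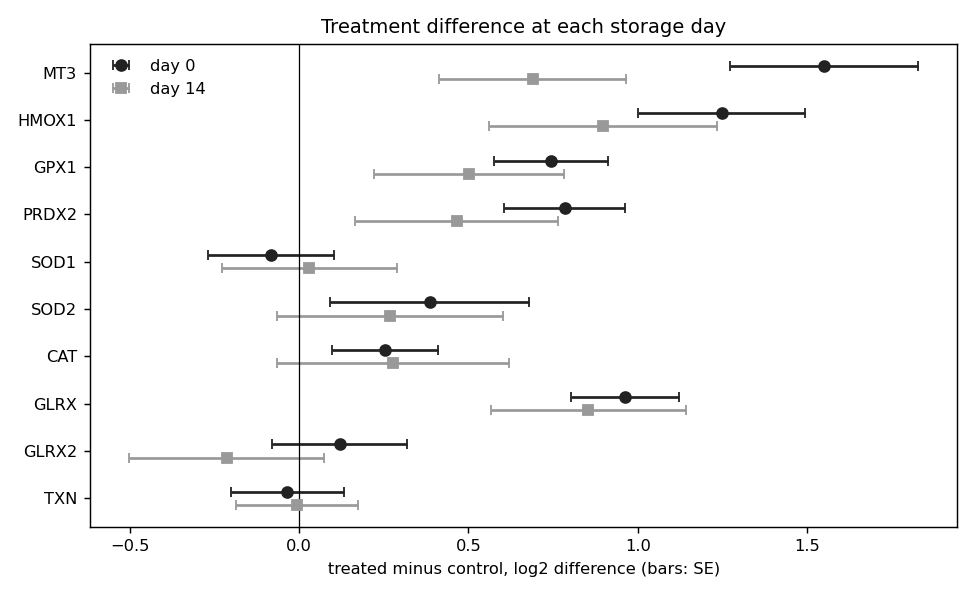
Treated minus control difference (log2, bars SE) of each gene at day 0 and at day 14. MT3 was 1.55 at day 0 and 0.69 at day 14, while HMOX1 was 1.25 and 0.90 and GLRX 0.96 and 0.85.

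The day 14 differences were unequal between array slides, each of which carried a few of the samples. On slide 2, with control K6 and treated DE27 and DE29, MT3 differed by 1.06, HMOX1 by 1.59, GPX1 by 1.52, PRDX2 by 1.33 and GLRX by 1.33. On slide 4, with control K9 and treated DE30 and DE31, the values were -0.01 for MT3, -0.52 for HMOX1, 0.11 for GPX1, 0.35 for PRDX2 and 0.18 for GLRX. Slide 5, with K10 and DE32, gave 0.48, 1.44, 0.22, -0.03 and 0.52 in the same order. Each slide held a single control, and K6 at day 14 was also the array with the lowest 75th percentile (274). On scan day 2 the 5 genes differed by 0.09 to 0.31, and scan day 3 held no treated day 14 array.

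**Figure D3:**
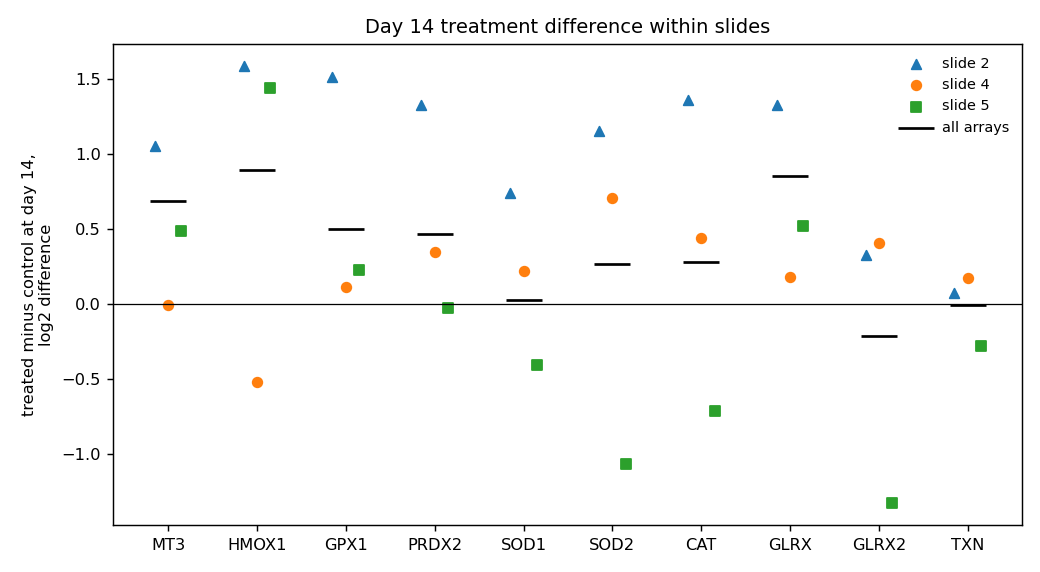
Treated minus control difference at day 14 (log2) of each gene within the 3 slides that held both groups, with the difference over all arrays as a bar. HMOX1 runs from -0.52 on slide 4 to 1.59 on slide 2, so that the direction is not the same on every slide.

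Storage lowered 6 of the 10 members over the 10 animals (limma, treatment as a covariate, adjusted p of 0.05) and raised none. This fit has no animal term, although each animal gave a sample on both days, and with the animal as a block GLRX no longer passed. Among them GLRX2 fell most, 5.35-fold, followed by SOD1 (2.54-fold), CAT (2.04-fold), SOD2 (1.45-fold) and TXN (1.42-fold). The change of GLRX, 1.35-fold, turned in sign with another background correction. Only GLRX2 and SOD1 kept their calls when slides were blocked. Storage moved much of the array, as 54.6% of tested probes passed in either direction and 23.1% passed as lower. The median change of the members was -0.47. In control animals 4 members passed, all lower (SOD1, CAT, GLRX2 and TXN), beside 17.3% of tested probes, and in SOD1, CAT and GLRX2 the days did not overlap, as in 12% of probes. In treated animals 3 passed as lower (SOD1, CAT and GLRX2), beside 11.6% of probes, and SOD1 and GLRX2 did not overlap between days, as in 7.73%. The day 0 arrays of both treatments chose the members, and they stand in every storage comparison here, so the storage values of MT3, HMOX1, GPX1, PRDX2 and GLRX start from levels that the choice had favoured as low in control and high in treated animals.

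GLRX2 had signals of 898, 961, 1082, 961 and 773 in control animals at day 0 and 211, 124, 199, 147 and 369 at day 14. Treated animals gave 657, 1147, 996, 1433 and 979 at day 0. At day 14 they gave 164, 146, 244, 156 and 147. Every day 14 sample lay below every day 0 sample, and the signal was lower in 10 of 10 animals, as it was for 9.77% of tested probes.

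The GLRX2 change was -2.42 ± 0.18 (adjusted p = 5.57e-09), with -2.25 ± 0.26 in control (adjusted p = 0.000471) and -2.59 ± 0.23 in treated animals (adjusted p = 0.000135). Within animals it ranged from -3.20 to -1.07. Slide and storage day were largely confounded, since only slides 5 and 6 held both days: the change was -2.07 on slide 5, -1.80 on slide 6 and -1.89 ± 0.30 in a fit that blocks on slides (adjusted p = 0.00118). Slide 5 held 1 treated array of day 0, and 1 control and 1 treated array of day 14. By scan day the change was -2.79, -2.44 and -1.80. Scan day 3 held the same arrays as slide 6, so its value is not a further check. On scan day 1 the days lay on separate slides, 1 and 2.

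SOD1 in control animals was 4644, 5388, 4237, 6205 and 6476 at day 0 and 2177, 1359, 2679, 1665 and 2502 at day 14. In treated animals it was 5831, 3632, 4575, 6177 and 5345 at day 0 and 3324, 1555, 2121, 1771 and 1888 at day 14. Both treatments showed complete separation of the days, and all 10 animals had a lower value at day 14. The change was -1.35 ± 0.16 (adjusted p = 1.07e-06), close to the -1.31 ± 0.29 found when slides were blocked (adjusted p = 0.00942), and it lay between -1.41 and -1.23 on the 3 scan days. In control animals the change was -1.40 ± 0.22 (adjusted p = 0.00125) and in treated animals -1.29 ± 0.23 (adjusted p = 0.00281). Within a single treatment, only 1 slide held both days. For controls this was slide 6, with 1 array of day 0 and 2 of day 14. For treated animals it was slide 5, with 1 array of each day, both of DE32. Fits that block on slides within a treatment therefore take the storage change from those arrays alone. They gave -1.42 for SOD1 and -1.92 for GLRX2 in controls, and -1.50 and -2.73 in treated animals. The SOD1 calls and the treated GLRX2 call were lost there, but the GLRX2 call in controls was not. So few arrays cannot decide on these calls.

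CAT in control animals was 4984, 4269, 6125, 5368 and 4704 at day 0 and 2402, 1436, 3740.3, 2202 and 3142 at day 14. Treated animals gave 5109, 7294, 6831, 6235 and 4993 and, at day 14, 5773, 2355, 3872, 2318 and 1918. The days separated in the controls but overlapped in the treated animals, where DE27 alone had a slightly higher value after storage. CAT was lower in 9 of 10 animals, a count that 19.4% of tested probes reached or passed. The change was -1.03 ± 0.19 (adjusted p = 0.000146), and blocking on slides gave -0.64 ± 0.37 (adjusted p = 0.239), which ends the call. In control animals CAT changed by -1.04 ± 0.24 (adjusted p = 0.00740) and in treated animals by -1.02 ± 0.29 (adjusted p = 0.0230). The latter call was lost without DE29, DE30, DE31 or DE32, with adjusted p up to 0.111. Both calls within a treatment were also lost when slides were blocked, at -0.65 in control and -1.38 in treated animals. Those values again rest on slide 6 alone in control and on DE32 alone in treated animals.

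TXN fell less, by 0.51 ± 0.11 on the log2 scale (adjusted p = 0.000878), and was lower in 9 of 10 animals, DE29 being the exception. Its signals ranged from 2111 to 3621 on day 0 and from 1511 to 2407 on day 14, so the days overlapped. The call was lost in the fit that blocks on slides (-0.46 ± 0.21, adjusted p = 0.136). In control animals alone TXN changed by -0.52 ± 0.18 (adjusted p = 0.0366). This call was lost with the animal (adjusted p = 0.0653) or the scan day (0.0694) as a block. Quantile scaling (0.0792) and the series table (0.0678) ended it as well. Blocking on slides, of which only slide 6 held both days of controls, ended it too. The call was also lost without K3, K6, K8 or K9 (adjusted p up to 0.161). In treated animals the value was -0.49 ± 0.17 (adjusted p = 0.0511).

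SOD2 and GLRX stood at the edge of the threshold. SOD2 changed by -0.54 ± 0.23 (adjusted p = 0.0497), was lower in 8 of 10 animals and had a value of 0.01 ± 0.39 when slides were blocked. Beside the slide block, 2 of the 9 other processing settings ended its call without a turn in sign. Its call was also lost without K6, K9, DE27, DE29, DE30 or DE31 (adjusted p from 0.0522 to 0.137). GLRX changed by -0.44 ± 0.16 (adjusted p = 0.0289), which became 0.0510 with the animal as a block, and 4 of its 10 day 14 values were not well above background. Its call was also lost without K3, K6, K8, DE31 or DE32 (adjusted p from 0.0521 to 0.0833). With the normexp background correction its change turned to 0.80 (adjusted p = 0.00208), so its direction over storage depends on the background correction.

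The other 4 genes did not pass over storage. GPX1 had -0.28 ± 0.16 (adjusted p = 0.152), but passed without DE27 (-0.40, adjusted p = 0.0327) and with normexp (-0.46, adjusted p = 0.0166). It was -0.06 with slides blocked, -0.15 with quantile scaling, -0.18 in the series table and -0.19 without DE31. PRDX2 had -0.18 ± 0.18 (adjusted p = 0.412) and HMOX1 -0.11 ± 0.21 (adjusted p = 0.690). MT3 had 0.24 ± 0.22 (adjusted p = 0.354) and was the only member with a value above 0. In MT3 the control animals gave 0.67 ± 0.28 (adjusted p = 0.0791; with scan day as a block 0.79, adjusted p = 0.0164) and the treated animals -0.19 ± 0.27 (adjusted p = 0.629). The control value rested much on K10, without which it was 0.32 (adjusted p = 0.279), and without K8 it was 0.91 (adjusted p = 0.0498). With slides blocked it was 1.09, which rests on the control arrays of slide 6 alone. The difference between these storage changes is described without a test, because it contains the day 0 treatment difference: it was -0.86 ± 0.40 for MT3 (-0.50 without K10) and between -0.35 and 0.11 for the other 9 genes.

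**Figure D4:**
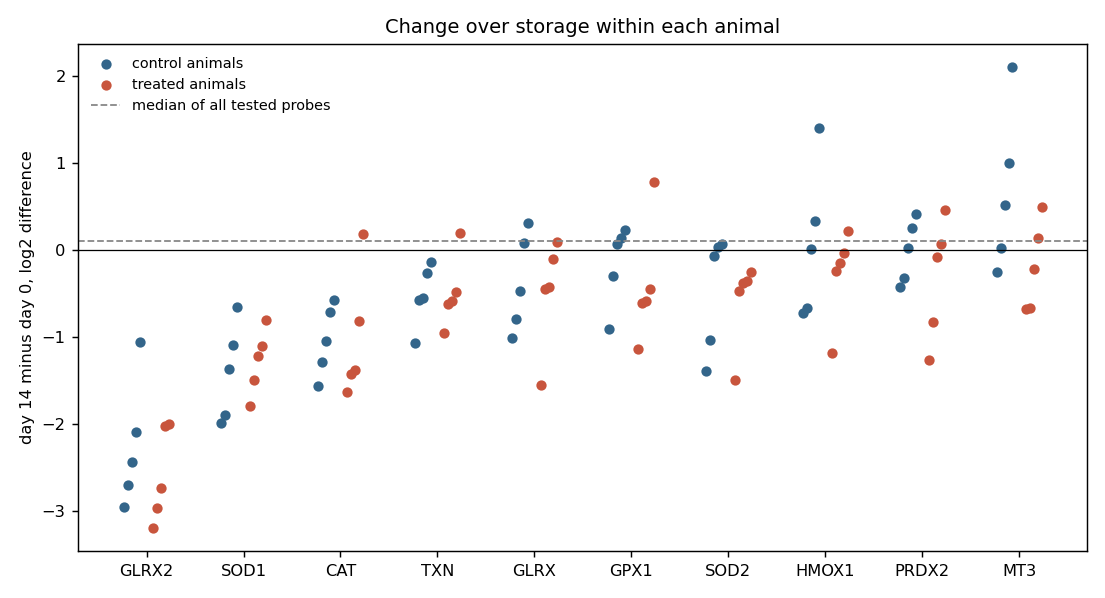
Change from day 0 to day 14 (log2) of each gene in each of the 10 animals, with the median of all tested probes as a dashed line. GLRX2 and SOD1 lie below 0 in all 10 animals, whereas MT3 ranges from -0.68 to 2.10.

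The wider antioxidant pathways are given by lists of genes tested on 1 probe per gene. Counts of list genes lower or higher after storage are of those past an adjusted p of 0.05 in limma. Of all tested probes, 23.1% passed as lower and 54.6% in either direction. Superoxide and peroxide removal, a list that holds GPX1, PRDX2, SOD1, SOD2 and CAT, had 10 of 16 genes lower and 1 higher after storage. Its other members that fell included the peroxiredoxins PRDX3 (-1.42 ± 0.22), PRDX4 (-1.17 ± 0.17) and PRDX5 (-0.88 ± 0.15), which work in mitochondria, in the endoplasmic reticulum and in several compartments, respectively. GPX4, which reduces lipid peroxides, changed by -0.54 ± 0.17. The extracellular dismutase SOD3 rose by 0.58 ± 0.15. Adjusted p-values of these 5 genes were at most 0.00959, and the list's median was -0.47 against 0.10 over all probes.

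Genes of the thioredoxin and glutaredoxin systems were lower for 8 of 14 and higher for 2. The iron-sulphur cluster glutaredoxins GLRX5 (-1.43 ± 0.31) and GLRX3 (-0.72 ± 0.11) fell, as GLRX2 did, and so did nucleoredoxin NXN (-1.31 ± 0.21) and the methionine sulphoxide reductase MSRA (-0.77 ± 0.17). The thioredoxin reductases TXNRD3 (1.16 ± 0.22) and TXNRD2 (0.33 ± 0.10) rose. In the glutathione list 10 of 24 genes fell and 1 rose, led by ME1 (-1.69 ± 0.24), the malic enzyme that makes NADPH, and by the transferases GSTA4 (-1.30 ± 0.20) and MGST2 (-0.70 ± 0.15). TALDO1, the transaldolase of the pentose phosphate pathway, fell by 0.65 ± 0.15 on the log2 scale. Glutathione synthetase GSS rose by 0.32 ± 0.09.

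The metallothionein and metal list had 1 of 8 genes higher, the metal-responsive factor MTF1 (0.38 ± 0.10), and 1 lower, the copper chaperone ATOX1 (-0.31 ± 0.12). Of 17 heme and iron genes, 5 fell and 2 rose. The heme synthesis enzymes FECH (-1.43 ± 0.21) and CPOX (-1.28 ± 0.19) fell, although their probes were well above background on only 10 and 13 of the 20 arrays. The transferrin receptor TFRC (-0.61 ± 0.17) and ACO1 (-0.41 ± 0.14), an iron-sensing protein, also fell, although a second TFRC probe gave -0.12 ± 0.19 (adjusted p = 0.615). Hemopexin HPX, a heme-binding protein, rose by 1.32 ± 0.18 and the heme exporter FLVCR1 by 0.39 ± 0.14. The 2 probes of ALAS1, the first enzyme of heme synthesis, disagreed, at -0.29 ± 0.22 (adjusted p = 0.275) and 1.60 ± 0.18 (adjusted p = 7.82e-07).

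Among 28 genes of the NRF2 pathway, 9 fell and 3 rose after storage. NQO1, a quinone reductase and a standard NRF2 target, changed by -1.21 ± 0.19, and the ligase subunit CUL3, which acts with KEAP1, by -0.84 ± 0.19. BACH1, the repressor of HMOX1, rose by 1.11 ± 0.21 and the NRF2 relative NFE2L1 by 1.77 ± 0.16, while HMOX1 itself did not pass. The exporter ABCC1 rose by 0.67 ± 0.14. ME1 and TALDO1 stand in this list too. The share of genes that passed over storage was 68.8% for superoxide and peroxide removal, 71.4% for thioredoxins and glutaredoxins, 45.8% for glutathione, 25.0% for metal handling, 41.2% for heme and iron and 42.9% for the NRF2 list, beside 54.6% of all tested probes. The adjusted p of every list gene said to have risen or fallen was at most 0.0389. With slides blocked, 14.8% of all probes passed, and the calls among list genes were SOD1, GLRX2, GLRX5, GSTA4, CHAC1, HPX and NFE2L1. Members aside, some list genes said above to have risen or fallen moved by more than 1.5 times in that fit. Their values there were 0.54 for BACH1, 0.43 for TXNRD3, -0.58 for NXN, 0.26 for ABCC1, 0.10 for MTF1, -0.39 for TALDO1, -0.69 for CPOX, -0.34 for TFRC and -0.20 for ATOX1. Of the genes that had not passed, the first ALAS1 probe turned from -0.29 to 0.08, and HMOX1 was -0.33.

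At day 14 none of the 6 lists held a gene that passed between treated and control animals in limma. At an unadjusted p of 0.05, 5 of 28 NRF2 genes, 2 of 17 heme and iron genes and 1 gene in each of the other 4 lists passed, beside 10.5% of all tested probes. The NRF2 list, which holds the members HMOX1 and TXN, had a median of 0.33 at day 14, against 0.05 over all tested probes. In it 22 of 28 genes were above 0, as at day 0 in the same animals, and none passed.

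**Figure D5:**
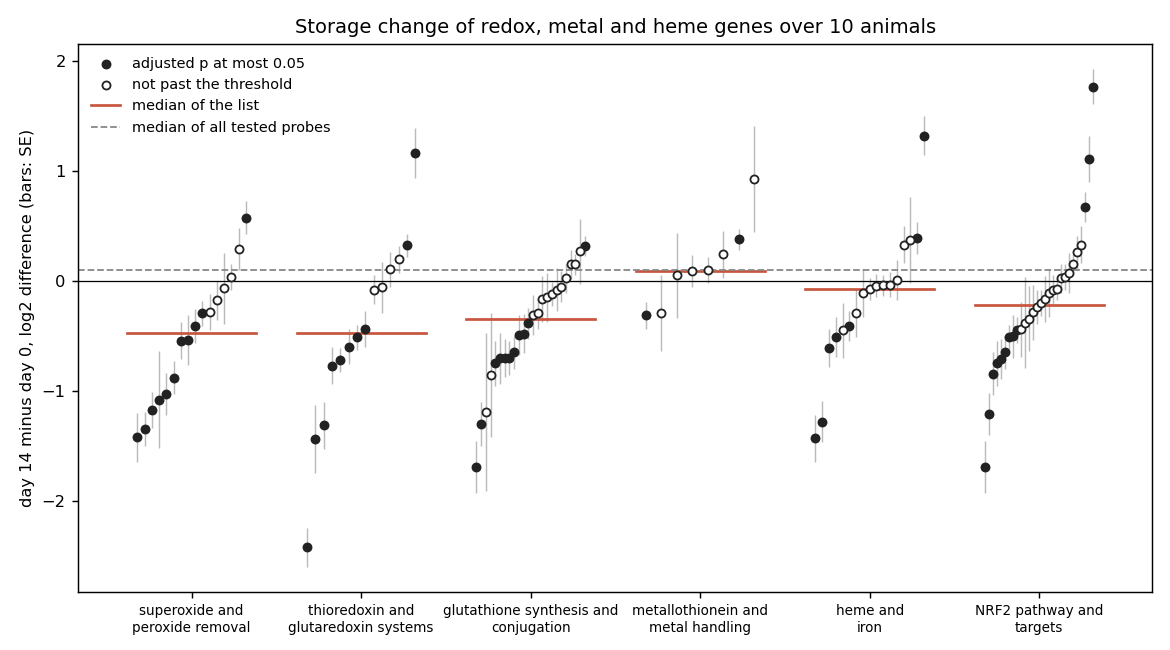
Change over storage (log2, bars SE) of every tested gene in the 6 lists over 10 animals; filled points passed an adjusted p of 0.05, bars mark each list's median and the dashed line the median of all tested probes. Thioredoxin and glutaredoxin genes run from -2.42 for GLRX2 to 1.16 for TXNRD3.

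Markers of other cells in the tissue moved beside these changes, and their part in the members' values was not tested. At day 14 the muscle fibre markers were higher in treated animals for 7 of 7 genes (median 0.59, none past the threshold). Their summed signal ran from 896505 to 1142881 in control and from 1247729 to 1810787 in treated samples, without overlap. At day 0 these markers were lower in treated animals for 5 of 7 genes and higher for 2 (median -0.37, none past the threshold). Their sums then overlapped, from 844655 to 1114728 in control and from 635259 to 896850 in treated samples. Fibroblast markers were lower in treated animals at day 14 for 6 of 6 genes (median -0.93, none past the threshold), with sums from 17684 to 88766 in control and from 8133 to 39800 in treated samples. Over storage, red blood cell genes, of interest for PRDX2, were higher for 4 of 4 tested markers and passed for 3, with a median of 1.07, while SLC4A1, EPB42 and GATA1 were not above background. Endothelial markers passed as higher for 6 of 7 genes (median 0.80), and fibroblast markers as lower for 3 of 6 (median -0.90). Muscle fibre markers passed as higher for 4 of 7 and as lower for 1 (median 0.58), and adipocyte markers as lower for 2 of 4, ADIPOQ and CIDEC (median -0.99). Beside these counts over storage, 54.6% of all tested probes passed in either direction and 23.1% as lower, with a median change of 0.10. At day 0, macrophage markers were above 0 in the treated animals for 11 of 11 genes, with a median of 0.21 and no gene past the threshold. So were 4 of 4 red blood cell (median 0.40), 4 of 4 adipocyte (0.39) and 7 of 7 endothelial markers (0.23), again with none past the threshold. The summed macrophage signal ranged from 2790 to 11092 in control and from 4814 to 11396 in treated samples, and MARCO was not above background in either group. Red blood cell markers summed to 2251 to 18373 in control and 1869 to 30770 in treated samples at day 0, and to 8843 to 47675 and 2249 to 50258 at day 14.

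Over the 20 arrays, which share animals, storage days and scaling, the genes whose signal followed a member most closely differed between members. They are given with Pearson's r as a description, among 11246 genes, followed by r after the group means were taken out. MT3 was followed most closely by ANKRD35 (0.85, then 0.63), TANGO2 (0.85, then 0.64) and TLE2 (0.83, then 0.46). HMOX1 was closest to GLRX (0.84, then 0.67), SLC2A8 (0.84, then 0.61) and DGAT2 (0.83, then 0.55). GPX1 ran with HADHA (0.90, then 0.86), PTPN3 (0.89, then 0.78) and ETFB (0.88, then 0.83). PRDX2 ran with COQ10A (0.92, then 0.87), BSG (0.92, then 0.88) and TBC1D7 (0.91, then 0.86). Within groups, the correlations of GPX1 and PRDX2 with these genes were above 0.77, and those of MT3 and HMOX1 lay between 0.46 and 0.67. The genes were picked for high r on these same arrays, so high values within groups follow in part from the choice. GLRX is itself a member with a day 0 difference, and was well above background on only 16 of 20 arrays.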

How the data were processed

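Total RNA of 20 neck muscle samples was labelled with cyanine 3 and hybridised to a bovine Agilent array, per the labels. Per the file headers, the deposited intensity of each spot is the background-subtracted, detrended signal of Feature Extraction 9.5.1.1. A series table of intensity values that the authors deposited, with its normalization not given in the sources used here, served as an alternative. The submitters' processing notes name R 2.11.1.

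Outlier spots were left out, spots of a probe averaged on the log2 scale, and each array centred on its 75th percentile. Probes well above background on at least 5 of 20 arrays were tested (15430, with 6045 removed). Groups were compared with limma 3.58.1 (R 4.3.3) at an adjusted p of 0.05, by Benjamini-Hochberg over all tested probes. Control and treated groups at each day and the days over all animals or within a treatment were compared. The scripts were tested on simulated data with 200 changed probes. Precision is limited by the 5 animals in each group, as intensities carry no counting depth.

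Day and treatment come from titles and characteristics. A free-text description contradicts the titles on the day and was not used, and a day 0 title with a shortened name was read as DE31 by its number. Same-numbered samples come from the same animal, per the titles, and their deviations from group means correlated between -0.15 and 0.28. Gene names came from the annotation in the files and the RefSeq gene table of ARS-UCD2.0, in which all 10 members matched.

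The members, lists, markers and named genes were chosen with earlier results of these data known. In each list the genes named are those that passed with the smallest p, at most 4 in each direction. The 3 genes most alike were named for MT3, HMOX1, GPX1 and PRDX2. Alternatives were the normexp correction, median or quantile scaling, the series table, the filter on dim probes, slide, scan day or animal as a block, and leaving out each animal.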

Additional observations from a re-analysis of the deposited data

Results flagged for a closer look

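Of 40 groups of 5 samples (10 genes in 4 groups), 5 held a sample whose gap to its neighbour was large for the group's range, where chance flags about 1 in 20 groups. GPX1 in control K6 at day 14 was low, at 4003 against 6620 to 7879 in the other 4 controls. PRDX2 in control K3 at day 0 was high, at 26601 against 14327 to 16524. SOD2 in treated DE32 at day 0 was low, at 660 against 1475 to 1766. GLRX in treated DE31 at day 14 was low, at 15.1 against 32.7 to 42.5, and was not well above background there. GLRX2 in treated DE30 at day 14 was high among treated samples, at 244 against 146 to 164, yet below every day 0 sample.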

How the results depend on the processing

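No member passed between treated and control animals at day 14 under any alternative. Over all probes that comparison gave 11 calls, against 2 with normexp, 7 on probes above background everywhere, 0 with slide as a block, 3 with scan day as a block, 110 with the animal as a random replicate block, and 0 to 12 with an animal left out. The day 0 treatment comparison gave 378 calls, against 231 with no filter on dim probes, 203 with the random animal block, and 135 to 312 with an animal left out. More calls came with normexp (481), on probes above background everywhere (454) and with scan day as a block (530). Median or quantile scaling, the series table and slide as a block gave 382 to 400.

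Storage over all animals gave 8431 calls, 13305 with no filter and 2278 with slide as a block, which kept 2 of 6 members (GLRX2 and SOD1). In control animals slide as a block left 183 probes and 1 member, and leaving out an animal gave 3221 to 6652. In treated animals the 4584 calls became 8819 with normexp (5 members), 8723 with no filter, 0 with slide as a block (0 members), and 2434 to 5703 with an animal left out. Within a treatment, the counts with slide as a block rest on the 1 slide that held both days. The animal as a block ended the calls of GLRX over all animals and TXN in controls and no other call of a member.

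Signs turned as follows. With normexp, GLRX over storage gave 0.80 over all animals, 0.88 in controls and 0.72 in treated animals, SOD1 at day 14 gave -0.053 and HMOX1 in stored controls -0.060. The series table gave -0.023 for SOD1 at day 14 and 0.11 for PRDX2 in stored controls, and quantile scaling 0.13 for the latter. Median centring gave -0.0087 for HMOX1 in stored controls. Slide as a block gave 0.015 for TXN at day 14, 0.015 for SOD2 over storage, and -0.65 for HMOX1 and 0.45 for PRDX2 in stored controls. With an animal left out, day 14 values ranged from -0.14 to 0.13 for SOD1, -0.38 to 0.017 for GLRX2 and -0.095 to 0.058 for TXN. Storage values ranged from -0.28 to 0.013 for HMOX1 over all animals, and in controls from -0.27 to 0.27 for HMOX1, -0.26 to 0.030 for GPX1 and -0.12 to 0.087 for PRDX2. The cause of these turns was not tested. Each member has 1 probe, so averaging a gene's probes gave no other value. TXN in treated animals, at 0.0511, passed with normexp, median centring and other filters.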
